A study of Mus musculus with 4 samples.

Results

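Interferon-stimulated genes are genes that cells switch on when they sense an interferon, and 41 of them were followed here in whole liver. They were taken by symbol: IFIT, OAS, Mx, GBP and IRG family members, 4 transcription factors, 4 sensors of foreign nucleic acid, the ISG15 pathway and 10 other effectors. Of the 41 genes, 37 had a matched probe and 30 had a probe free of outlier spots on every array, out of 22047 genes in all with such a probe. Oas3 was well above background on no array, which left 29 genes to compare, and 27 of these were well above background on all 4 arrays. Mx1, Mx2, Oas1b and Tgtp1 were not analysed here. Ifit1, Gbp2, Gbp6, Gbp7, Igtp, Irgm1 and Ifih1 had a spot flagged as an outlier somewhere and are given separately, between the arrays that lack the flag.

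The study set 4 groups of male mice side by side, with 1 array a group: untreated mice that aged naturally, aging diabetic mice without drug, aging diabetic mice on metformin, and aging diabetic mice on both metformin and astragalus polysaccharide (APS, a plant polysaccharide). Metformin is a glucose-lowering drug used in type 2 diabetes. All mice were fasted for 12 hours, and the titles give 60 d for every sample without saying what the time counts. The labels state neither the strain, the age, the doses nor the way diabetes was brought about, and they do not say whether an array holds 1 mouse or a pool. No group received APS alone, so its share in the combined treatment cannot be told apart. With 1 array a group no difference has a replicate check and no test was possible; every difference below compares 2 arrays.

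A level is the log2 of the array signal relative to that array's 75th percentile, and is compared between arrays only, not between genes. The error given with a difference is the scanner software's measurement error, about 0.16 on the log2 scale for most genes, and covers neither animals nor hybridizations. A gene is called higher or lower at a 2-fold difference or more. Each array had 59305 spots that were not controls, of which 33668 to 37402 were well above background, and none was saturated. All 9 hepatocyte genes measured were well above background on every array, Alb (albumin) at 4.23, 4.11, 3.78 and 4.12 on the natural aging, aging diabetic, metformin and APS plus metformin arrays.

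Interferons of type I and type III bind receptors at the cell surface and activate receptor-bound kinases, which phosphorylate Stat2 among others. A complex that holds Stat2 and Irf9 then binds the interferon-stimulated response element in target promoters. Interferon gamma, the type II interferon of T and NK cells, acts largely through the gamma-activated site. The targets include enzymes that sense or degrade viral RNA, GTPases that attack the compartments of intracellular microbes, the ubiquitin-like protein Isg15, and feedback inhibitors such as Usp18 and the Socs proteins.

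The promoter letters show what many of these genes share. RefSeq promoters (GRCm38.p6, 250 bases before the transcription start to 50 bases after it) were found for 29 of the 41 genes. The response element was searched as GAAA, any 2 bases and GAAA again, on both strands, and counted where it lay wholly upstream of the start. It occurred in 17 of the 29 genes (58.6%), against 936 of 27025 genes with a promoter in the table (3.46%) and 978 of its 32851 promoters (2.98%). The gamma-activated site, searched as TTC, any 3 bases and GAA, which reads alike on both strands, occurred in 9 of the 29 genes (31.0%), against 2197 genes (8.13%) and 2306 promoters (7.02%). Windows around the response element are printed below for a ubiquitin-like protein, a pair of OAS genes, an IFIT, a GBP and a pair of IRG GTPases, with the matched letters in capitals, overlapping matches merged, and each read along the gene's own strand.
Isg15 (chr4:156200865-156200906, minus strand): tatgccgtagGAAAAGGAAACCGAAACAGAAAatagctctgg
Oas1a (chr5:120907526-120907555, minus strand): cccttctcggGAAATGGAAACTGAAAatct
Oas1g (chr5:120887614-120887641, minus strand): cccttctcggGAAATGGAAACTGAAAat
Ifit3 (chr19:34583363-34583426, plus strand): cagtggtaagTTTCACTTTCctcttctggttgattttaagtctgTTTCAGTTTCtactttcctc
Gbp3 (chr3:142559989-142560024, plus strand): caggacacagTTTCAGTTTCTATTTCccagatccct
Igtp (chr11:58199501-58199541, plus strand): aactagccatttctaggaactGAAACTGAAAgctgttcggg
Irgm2 (chr11:58214892-58214932, plus strand): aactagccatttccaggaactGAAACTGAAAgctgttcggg
The Oas1a and Oas1g windows were identical over the 28 bases they share, and the Igtp and Irgm2 windows over 40 of 41 bases. Igtp and Irgm2 also hold a gamma-activated site within the lower-case letters just before the capitals. A match is a description of letters, not of binding.

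More of these genes were highest on the metformin array than on any other, and more were lowest on the APS plus metformin array than on any other. Of the 27 genes well above background on all 4 arrays, 19 were highest on the metformin array, while 23.5% of all 12689 such genes were. None was highest on the APS plus metformin array (21.6% of all genes), and 16 were lowest there (22.4%). The natural aging array held the lowest level of 8 genes (23.7% of all genes), the aging diabetic array of Ifit2 and Irf7 (20.4%) and the metformin array of Iigp1 (33.5%). The median level of the 27 genes was 0.95 with natural aging, 1.40 with diabetes, 1.92 with metformin and 1.03 with APS plus metformin, so by the median the natural aging array was the lowest, close to the combined treatment. Within a gene the levels spanned 0.38 to 2.94 over the 4 arrays, with a median span of 1.39. The exceptions to the metformin peak were Irf9, Stat2, Dhx58, Parp14 and Ifi35, highest on the aging diabetic array (21.8% of all genes), and Iigp1, Irf1 and Bst2, highest on the natural aging array (33.1%).

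**Figure D1:**
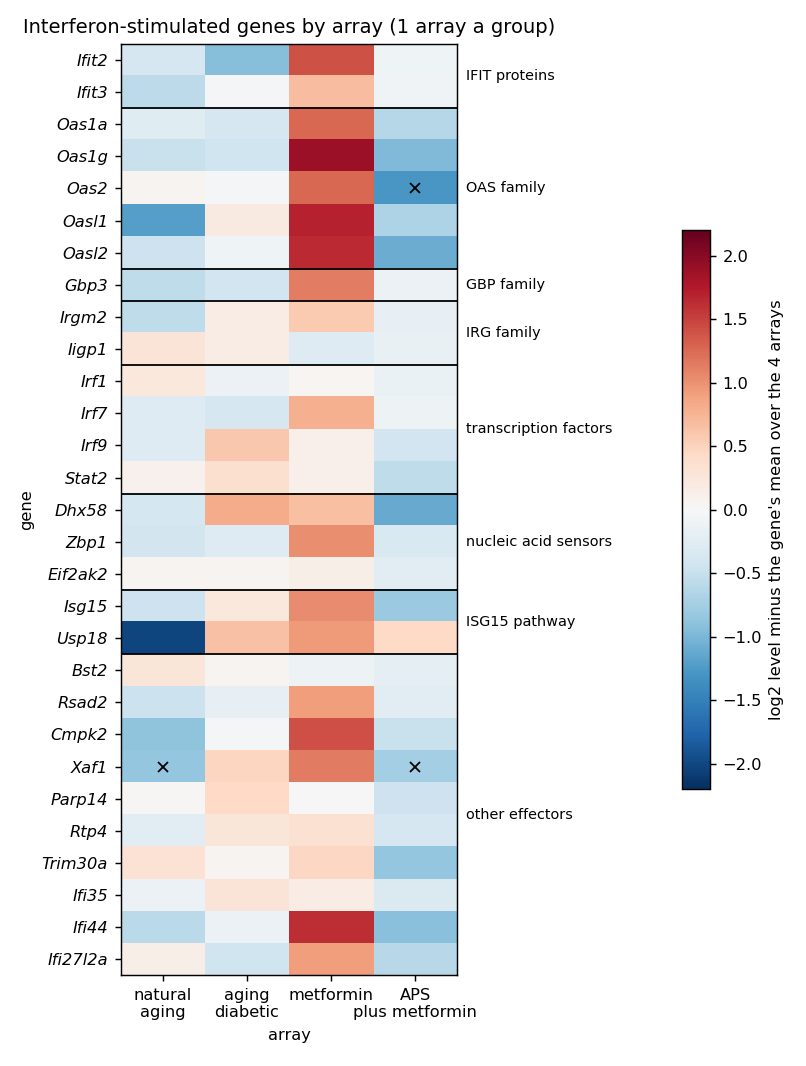
Levels of the 29 interferon-stimulated genes compared, by array (columns, 1 array a group), each as its log2 level minus the gene's own mean over the 4 arrays (colour scale). A cross marks a gene that was not well above background on that array; the metformin column holds the highest value of 19 of the 27 genes without a cross, and the APS plus metformin column the lowest of 16.

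Between the aging diabetic and natural aging arrays few of the genes differed by 2-fold. Usp18, Oasl1 and Dhx58 were higher on the aging diabetic array and none was lower, 3 of 29 genes, which is near the background: of all 14453 genes compared, 8.2% were higher and 6.09% lower. At 1.5-fold 8 of the 29 genes were higher, against 16.4% of all genes. The median difference was 0.30, against -0.04 over all genes, and 19 of the 29 differences were above 0 (45.8% of all genes). Metformin against aging diabetic gave 13 of 29 genes higher and none lower, where 11.9% of all 15562 genes were higher and 3.53% lower. The median difference of the 29 genes was 0.71, with all genes centred near 0, and 22 of the 29 differences were above 0 (48.9% of all genes).

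The combined treatment differed from metformin alone in the other direction. On the APS plus metformin array 16 of 29 genes were lower than on the metformin array and none was higher, where 12.4% of all 15599 genes were lower and 2.37% higher. The median difference was -1.24, against -0.03 over all genes, and 28 of 29 differences were below 0 (51.9% of all genes), Iigp1 being the one above. Against the aging diabetic array, 5 of 29 genes were lower with APS plus metformin and none was higher, where 6.9% of all 14734 genes were lower and 4.38% higher. The median there was -0.45, against 0.02 over all genes, and 26 of 29 differences were below 0 (48.1% of all genes). At 1.5-fold 13 genes were lower and 1 higher, where 15.0% of all genes were lower and 11.9% higher. Of the 5 lower at 2-fold, Oas2 and Xaf1 were not well above background on the APS plus metformin array. Irf9, at 2.00-fold, was at the edge of what counted. These comparisons share arrays: a high signal on the metformin array enters both the comparison with aging diabetic and that with APS plus metformin.

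Set against the natural aging array, the metformin array had 18 of 29 genes higher and none lower where 13.0% of all 15548 genes were higher and 4.71% lower, with a median difference of 1.19 and 25 of 29 differences above 0 (48.7% of all genes). The APS plus metformin array had 1 of 28 genes higher and 2 lower, where 6.14% of all 14634 genes were higher and 6.68% lower, with a median of -0.32 and 18 of 28 differences below 0 (52.0% of all genes). At 1.5-fold 6 genes were lower, against 14.7% of all genes. The 2-fold count with the combined treatment was thus near the background in both directions.

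**Figure D2:**
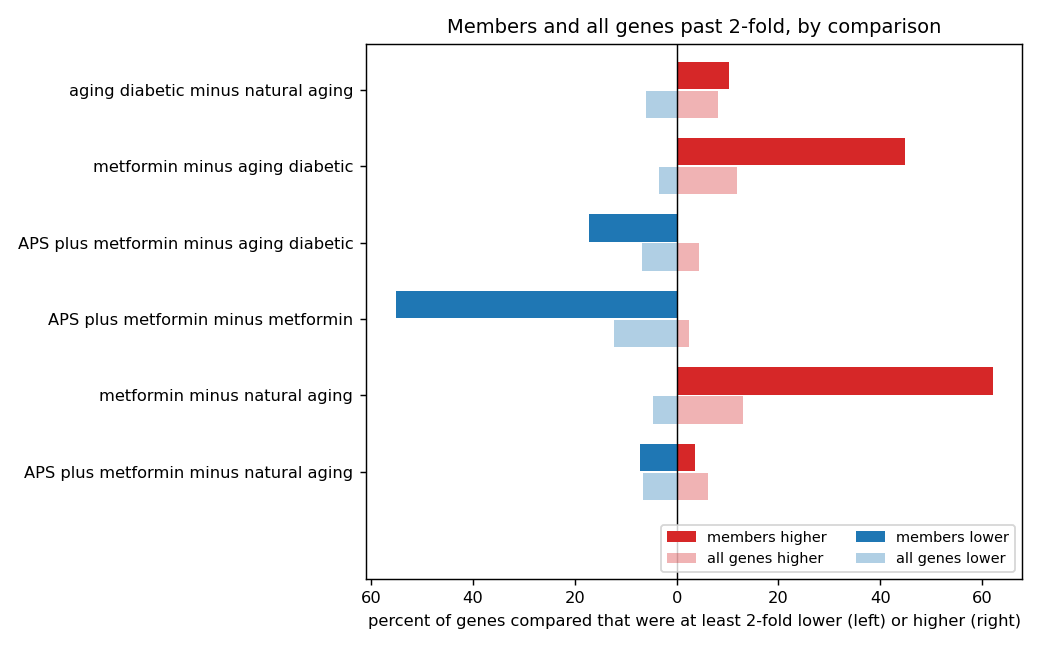
Percent of genes at least 2-fold higher (right of 0) or lower (left of 0) in each of the 6 comparisons, for the interferon-stimulated genes compared (full colour, 28 or 29 genes) and for all genes compared (pale). The members' bars exceed those of all genes most in the 3 comparisons with the metformin array, where 13 and 18 of 29 genes were higher and 16 of 29 lower.

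The OAS family, enzymes that make a short RNA-like messenger when they meet double-stranded RNA and their inactive relatives, differed together in both comparisons of metformin within the diabetic groups. All 5 members compared were higher on the metformin than on the aging diabetic array (11.9% of all genes), with a median difference of 1.64. All 5 were lower with APS plus metformin than with metformin (12.4% of all genes), with a median of -2.50. Oas1g, a paralog of Oas1a, stood at -1.99, -1.93, 0.39 and -2.46 on the natural aging, aging diabetic, metformin and APS plus metformin arrays. It was 5.01-fold higher with metformin than in the aging diabetic liver and 7.23-fold lower with APS plus metformin than with metformin. Only the metformin array was high; the other 3 lay within 0.53 of each other. Oas1 paralogs are alike in sequence, and whether a probe also binds a paralog's RNA was not tested.

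Oas1a, a synthetase that activates the ribonuclease RNase L, also peaked with metformin, at 0.64, 0.53, 2.16 and 0.27 in the same array order. It was 3.11-fold higher with metformin than in the aging diabetic liver. Oasl2, an OAS-like protein, had levels of -1.17, -0.82, 0.91 and -1.81. It was 6.62-fold lower with APS plus metformin than with metformin, and at 1.99-fold lower than on the aging diabetic array it fell just short of 2-fold. Oasl1, an OAS-like protein known to restrain the translation of Irf7, differed from these in also being higher in the aging diabetic liver. Its levels were -0.72, 0.68, 2.18 and -0.19, which is 7.48-fold higher on the metformin than on the natural aging array, and a further Oasl1 probe gave the same direction in all 6 comparisons.

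Oas2, another synthetase, was dim throughout, at -3.53, -3.64, -2.34 and -4.89, and the last of these was not well above background. Where one side was not well above background, the difference is a bound: the bright side is set against the array's dimmest detected signal, or against the gene's own dim signal if that is higher. By that bound Oas2 was at least 5.66-fold lower with APS plus metformin than with metformin and at least 2.30-fold lower than in the aging diabetic liver. The 2.30-fold bound and the 2.46-fold difference between metformin and aging diabetic both fell under 2-fold with another background correction (normexp).

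IFIT proteins bind viral RNA at its 5' end and block its translation. Ifit2 had the largest difference between metformin and aging diabetic among the members' brightest probes, 5.06-fold higher, with levels of -2.12, -2.68, -0.34 and -1.85 over the natural aging, aging diabetic, metformin and APS plus metformin arrays. Among those probes it also had the largest positive difference between APS plus metformin and aging diabetic, 0.83. Ifit3 was brighter and differed less, at 1.19, 1.74, 2.45 and 1.70. Ifit1, flagged as an outlier on the APS plus metformin array, stood at 0.35, 1.41 and 2.09 on the other 3 arrays in that order, 2.09-fold higher in the aging diabetic than in the natural aging liver.

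Guanylate-binding proteins and immunity-related GTPases, which respond strongly to interferon gamma, did not all peak with metformin. Gbp3, a guanylate-binding protein, was 2.93-fold higher with metformin than in the aging diabetic liver, with levels of -0.51, -0.37, 1.18 and -0.07. Gbp2, which had usable spots on only those 2 of the arrays, was 3.42-fold higher there. Gbp6 was 3.09-fold lower with APS plus metformin than in the aging diabetic liver, and Gbp7 differed by less than 2-fold in each of the 3 comparisons it allowed.

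Iigp1, an immunity-related GTPase that disrupts the vacuoles of intracellular parasites, was the only gene lowest on the metformin array. Its levels were 3.67, 3.56, 3.11 and 3.23, a span of less than 2-fold. Irgm2, a regulator of such GTPases, stood at 1.96, 2.68, 3.08 and 2.33, and was higher by 1.12 on the log2 scale with metformin than in the natural aging liver. Igtp, whose promoter window matches that of Irgm2 at 40 of 41 bases, was flagged on the metformin array and stood at 1.74, 2.29 and 1.96 on the natural aging, aging diabetic and APS plus metformin arrays. On these 3 arrays both genes kept the same order, with the aging diabetic array highest and the natural aging array lowest. Irgm1, a further regulator, could be compared only between APS plus metformin and natural aging, where the difference was -0.79.

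The transcription factors of the pathway did not share the metformin peak, apart from Irf7. Irf7, which drives a second wave of interferon and target transcription, was 2.22-fold higher with metformin than in the aging diabetic liver, at 2.23, 2.14, 3.29 and 2.42 on the 4 arrays in the same order. A further Irf7 probe gave a difference of 2.36 on the log2 scale for that comparison. Irf9 and Stat2, partners in the complex that binds the response element, were both highest in the aging diabetic liver. Irf9 stood at 1.25, 2.12, 1.66 and 1.12, and was 2.00-fold lower with APS plus metformin than in the aging diabetic liver, at the edge of what counted. Stat2 stood at 1.55, 1.79, 1.55 and 0.89. Irf1, a factor downstream of the gamma-activated site, stood at -0.07, -0.43, -0.27 and -0.46. A dimmer Irf1 probe gave -2.25, -3.22, -2.96 and -2.96, also highest on the natural aging array, with a wider difference from aging diabetic.

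Among the sensors, Dhx58 (LGP2), a helicase that tunes RNA sensing by Ifih1, set the aging diabetic and metformin arrays apart from the other pair. Its levels were -0.36, 0.84, 0.69 and -1.08, so it was 3.78-fold lower with APS plus metformin than in the aging diabetic liver and 3.40-fold lower than with metformin. This was the largest difference between APS plus metformin and aging diabetic among the members' brightest probes. Zbp1, a sensor of Z-form nucleic acid, stood at 0.95, 1.07, 2.39 and 1.03 by its brightest probe. Its other probe gave -1.45, -0.10, 0.60 and -2.70, so both probes were highest with metformin, while they differed in how low APS plus metformin lay: the dimmer probe gave a difference from the aging diabetic array of -2.59 on the log2 scale. Eif2ak2 (PKR), a kinase that halts translation, spanned only 0.38. Ifih1 (MDA5), a sensor of long double-stranded RNA, was flagged on the aging diabetic array and stood at 1.66, 2.40 and 1.42 on the natural aging, metformin and APS plus metformin arrays.

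Isg15, the ubiquitin-like protein, and Usp18, the protease that removes it and also restrains the type I receptor, followed different orders. Isg15 stood at 1.44, 2.13, 2.94 and 1.09 on the natural aging, aging diabetic, metformin and APS plus metformin arrays. With APS plus metformin it was 3.61-fold lower than with metformin and 2.06-fold lower than in the aging diabetic liver. Usp18 was low on the natural aging array alone, with levels of -1.02, 1.64, 1.92 and 1.43. It was 6.31-fold higher in the aging diabetic than in the natural aging liver, and still 5.46-fold higher with APS plus metformin than in the natural aging liver. Usp18 was the only member called higher in that last comparison, and it differed by less than 2-fold between any of the 3 diabetic groups.

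Of the other effectors, 4 of 10 were higher with metformin than in the aging diabetic liver (11.9% of all genes), and 6 of 10 were lower with APS plus metformin than with metformin (12.4%). Ifi44, an interferon-induced protein, stood at -0.48, -0.03, 1.73 and -0.81, and was 3.38-fold higher in the first comparison and 5.82-fold lower in the second. Rsad2 (viperin), an enzyme that makes a chain-terminating nucleotide, stood at 1.69, 1.99, 3.08 and 1.92. Cmpk2, the kinase encoded beside Rsad2 that supplies its substrate, stood at -1.26, -0.41, 1.05 and -0.86, and was 2.76-fold higher with metformin than in the aging diabetic liver, where Rsad2 was 2.13-fold higher. By these probes both neighbours had the same array order. A dimmer Rsad2 probe gave -4.14, -3.39, -0.80 and -3.18, also highest with metformin, with a larger difference from the aging diabetic array (2.59 on the log2 scale) and with APS plus metformin above aging diabetic.

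Ifi27l2a, a small membrane protein, stood at 1.96, 1.40, 2.76 and 1.23, but a dimmer probe of another of its transcripts went the other way between metformin and aging diabetic, by -0.40. With its probes averaged, Ifi27l2a was no longer called in either comparison with metformin. Trim30a, a TRIM protein that dampens inflammatory signalling, was near level on 3 arrays at -0.70, -0.94 and -0.55 and lower with APS plus metformin at -1.85. Its 2.23-fold difference from natural aging fell under 2-fold with normexp correction. Xaf1, a pro-apoptotic protein, was measured by a dim probe at -5.00, -3.67, -3.00 and -4.89, with the first and last not well above background. It was at least 3.57-fold lower with APS plus metformin than with metformin and at least 2.25-fold lower than in the aging diabetic liver, the latter not past 2-fold under normexp. Against natural aging it was at least 2.85-fold higher with metformin, which normexp also took under 2-fold. A brighter Xaf1 probe, flagged on the metformin array, gave 0.60, 1.72 and 0.59 on the other 3.

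Of the remaining effectors, Bst2 (tetherin), which holds budding virus at the cell surface, spanned 0.48 over the arrays, at 3.95, 3.76, 3.58 and 3.47. Parp14, an ADP-ribosyltransferase, stood at 1.58, 1.99, 1.55 and 1.11 and did not reach 2-fold in a comparison with the aging diabetic array. A dimmer Parp14 probe was past 2-fold between APS plus metformin and aging diabetic, at -1.04 on the log2 scale, and went the other way between metformin and aging diabetic, at 0.12 against -0.44. Rtp4, a chaperone of receptors, and Ifi35 also had their lowest level with APS plus metformin, at 2.50 and 2.39, and were within 2-fold of the aging diabetic array there.

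**Figure D3:**
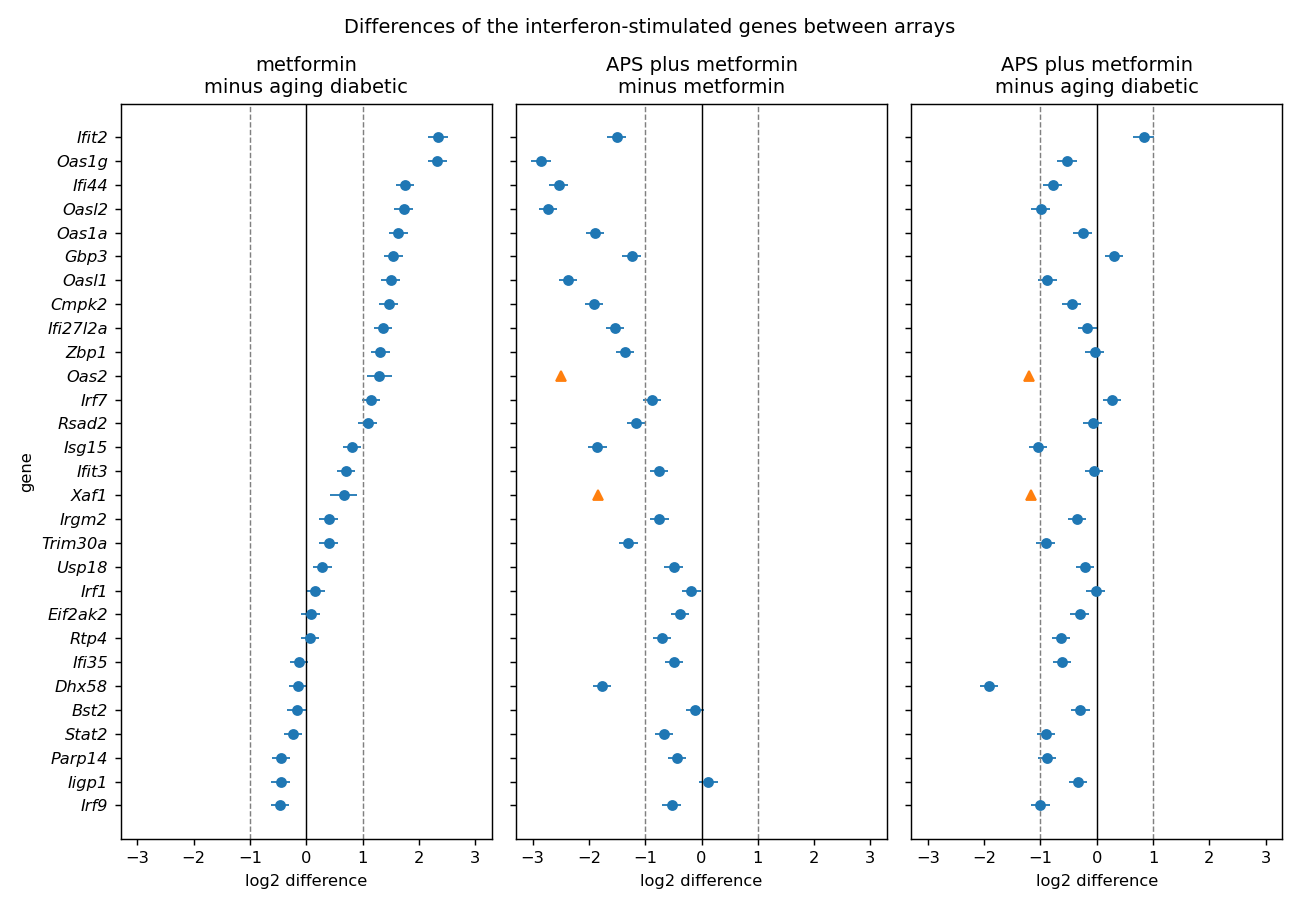
Log2 differences of the 29 interferon-stimulated genes in 3 comparisons between arrays, in the order of the first. Circles carry the measurement error as bars, triangles are bounds (Oas2 and Xaf1), the solid line is no difference and dashed lines are 2-fold; in the middle panel 28 of 29 genes lie left of 0.

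The rest of the pathway was read from lists. Of the ligands, Ifnb1, Ifna2, Ifna4, Ifna5 and Ifne were well above background on no array, and Ifng, the interferon of T and NK cells, was well above background on the metformin array alone, at -4.17. Ifnk, a type I interferon, and Ifnl3, a type III interferon, were well above background on all 4 arrays, and Ifna1 on the APS plus metformin array alone, at -4.63. Of 26 listed ligands, receptors and signalling genes, 19 were well above background on at least 1 array. With metformin against aging diabetic 3 of 18 compared were higher and none lower, near the 11.9% of all genes higher there. In the aging diabetic liver 3 of 17 were lower than in the natural aging liver and none higher, where 6.09% of all genes were lower. Ifngr1, a receptor chain for interferon gamma, stood at 1.66, 0.64, 1.70 and 1.10. Ifnlr1, the type III receptor chain, stood at -6.79 (not well above background), -4.25, -2.60 and -4.20. Ifnar1, a chain of the type I receptor, lay between 0.97 and 1.13 on all 4 arrays.

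Socs1 and Socs3, unlike Usp18, were highest on the natural aging array. Socs3, an inhibitor of cytokine receptors, stood there at 2.32, against -0.30, 0.78 and 0.27 on the aging diabetic, metformin and APS plus metformin arrays. Socs1, which blocks interferon receptor kinases, stood at -2.46, -4.39, -3.62 and -4.72.

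A list of 58 further interferon-stimulated genes held 45 with a usable probe, and 44 well above background on at least 1 array. With metformin against aging diabetic 11 of 44 were higher and 2 lower (11.9% and 3.53% of all genes), with a median difference of 0.24. With APS plus metformin against metformin none of 44 was higher and 16 were lower (2.37% and 12.4% of all genes), with a median of -0.67. Both medians have the members' direction and a smaller size. Sp110, a nuclear body protein, was among the larger at -0.36, -2.60, -0.11 and -2.29, high on the natural aging as well as the metformin array. Ifit1bl1, an IFIT relative, stood at -4.00, -3.97, -1.70 and -3.00. Against this order, Trim12a, a TRIM protein, was at -1.66, -0.67, -3.66 and -4.32, lower with metformin than in the aging diabetic liver. Of 15 sensing genes upstream of interferon, 2 were higher with metformin than in the aging diabetic liver and none lower, with a median of 0.04. Of 12 class I and II presentation genes, 2 were higher there and none lower, with a median of 0.33. Both counts lay near the background, with 11.9% of all genes higher in that comparison and 3.53% lower. With APS plus metformin against metformin, 3 of 16 and 3 of 12 were lower (12.4% of all genes). None was higher (2.37% of all genes), and the medians were -0.30 and -0.43.

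Chemokines that interferon gamma and other inflammatory signals induce went with the metformin array. Of 6 listed, 4 had a usable probe: Cxcl9, Ccl5, Ccl2 and Ccl7. All 4 were higher with metformin than in the aging diabetic liver (11.9% of all genes). All 4 were lower with APS plus metformin than with metformin (12.4% of all genes). In each of these comparisons 1 of the 4 differences was a bound. Ccl5, which attracts T cells, stood at 0.04, -0.94, 2.41 and -0.31. Ccl2, which attracts monocytes, stood at -0.86, -2.75, 1.17 and -2.10.

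Markers of some other cells were also higher on the metformin than on the aging diabetic array. In whole liver RNA, fewer cells of a type and less RNA per cell cannot be told apart. Of 13 T and NK cell genes compared, 9 were higher with metformin than in the aging diabetic liver (11.9% of all genes). Of the same 13 genes, 10 were lower with APS plus metformin than with metformin (12.4% of all genes). Their summed linear level was 3.85, 2.30, 6.99 and 3.25 on the 4 arrays in the usual order, while Klrb1c, an NK cell marker, was well above background on none. Cd3d, a part of the T cell receptor complex, stood at -2.58, -2.79, -0.19 and -2.25. Of 5 genes of recruited monocytes, 3 were higher in the first of these comparisons (11.9% of all genes). In the second, 3 of the 5 were lower (12.4% of all genes), with 1 bound. Among them was Ccr2, the receptor for Ccl2, at -1.71, -2.89, -0.23 and -3.03. The monocyte genes summed to 23.1, 20.5, 23.3 and 23.8, highest with APS plus metformin. Genes of stellate cells and matrix went the same way: 5 of 7 were higher with metformin than in the aging diabetic liver (11.9% of all genes), with summed levels of 21.8, 11.8, 24.3 and 17.3. Of these 7 genes, 2 were lower with APS plus metformin than with metformin (12.4% of all genes). Of 4 B and plasma cell genes compared, 2 were higher with metformin than in the aging diabetic liver (11.9% of all genes). Likewise 2 were lower with APS plus metformin than with metformin (12.4% of all genes). The B and plasma cell genes summed to 1.22, 0.42, 0.88 and 0.74, highest on the natural aging array. Cd79b, a part of the B cell receptor, stood at -1.90, -2.80, -1.49 and -2.53, while its partner Cd79a was well above background on no array. The part of these cells in the members' differences was not tested.

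The macrophage, hepatocyte and acinar lists had their highest summed level on the natural aging array, unlike most members. Among the diabetic groups, the macrophage and acinar sums were highest with metformin and lowest with APS plus metformin. The summed level of the macrophage and Kupffer cell genes was highest on the natural aging array at 71.9. It was 49.97, 63.7 and 41.3 on the aging diabetic, metformin and APS plus metformin arrays. Of the 11 macrophage and Kupffer cell genes compared, none was higher with metformin than in the aging diabetic liver (11.9% of all genes). In that comparison 2 of the 11 were lower (3.53% of all genes). The 9 hepatocyte genes summed to 159.4, 134.0, 106.2 and 135.6, so they were lowest on the metformin array, and none passed 2-fold in any of the 6 comparisons. All 7 pancreatic acinar genes compared were lower in the aging diabetic than in the natural aging liver, with summed levels of 51.3 and 2.49, then 10.2 with metformin and 0.18 with APS plus metformin. Of these 7 genes, 6 were higher with metformin than in the aging diabetic liver (11.9% of all genes). All 7 were lower with APS plus metformin than with metformin (12.4% of all genes), 5 of them as bounds. The part of any of these in the members' differences was not tested.

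**Figure D4:**
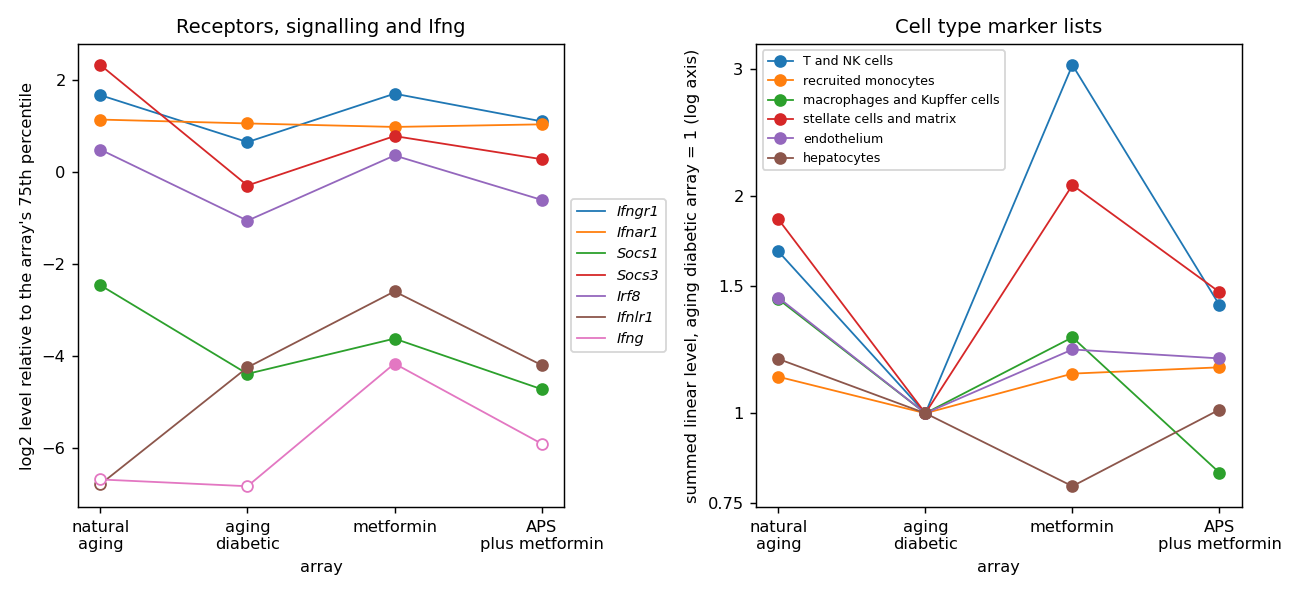
Left, log2 levels of interferon receptors, signalling genes and Ifng on the 4 arrays, with open circles where a probe was not well above background; Ifng is filled on the metformin array alone. Right, summed linear level of 6 cell type marker lists relative to the aging diabetic array (log axis); the T and NK cell list peaks on the metformin array, at 6.99 against 2.30 before scaling, where the hepatocyte list is lowest.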

How the data were processed

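The deposited array files hold spot intensity in the red channel (Cy5) from 4 one-colour Agilent arrays, background-subtracted by Agilent Feature Extraction (version 11.5.1.1 per the file headers, 10.7 per the submitters' processing notes). All arrays were on 1 slide and read in 1 scan per the file headers. The other deposited columns used are the signal's error and flags of 0 or 1. The deposited series table holds log2 values whose normalization is not given in the sources used here; it served as an alternative. Its column medians lay between 8.10 and 8.11.

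With Python 3.11.15, numpy 2.4.6 and pandas 2.3.3, each array's 75th percentile of log2 signal was subtracted. Spots flagged as outliers were left out, spots of 1 probe averaged, and the probe with the highest mean signal stood for a gene. Gene names came from RefSeq transcripts (GRCm38.p6), which matched 33767 of 56605 probes. Members and lists were chosen with earlier results of these data known. Given with all levels are the 3 largest differences each way in each comparison, bounds past 2-fold and the brightest member of each role, plus others chosen after their values were seen. Alternatives were quantile, cyclic loess and normexp (offset 50, limma 3.58.1 in R 4.3.3; on median spot signals, since no mean signal column is in the files), the series table, averaged probes, outlier spots kept, only genes well above background on all 4 arrays, and 1.5-fold. Chosen after seeing the data: outlier spots left out per pair of arrays. The calculation was tested on simulated data.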

Additional observations from a re-analysis of the deposited data

How the results depend on the processing

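Of 1370 values of single members under the alternatives, 1213 moved by less than the measurement error, 157 moved by more, and no called difference changed sign. The number of members higher in the aging diabetic than in the natural aging liver, 3, became 8 at 1.5-fold, 5 with outlier spots kept and 5 with outlier spots left out per pair of arrays. Between APS plus metformin and aging diabetic, the 5 lower members became 13 at 1.5-fold, 3 with normexp and 3 with only genes well above background on all 4 arrays, and the 0 higher members became 1 at 1.5-fold. Between APS plus metformin and metformin the median of -1.24 was -1.05 with normexp and -1.07 with outlier spots left out per pair of arrays. Between metformin and natural aging the median of 1.19 was 1.41 with quantile normalization, 1.44 with cyclic loess and 1.42 in the authors' series table. Between APS plus metformin and natural aging the 2 lower members became 6 at 1.5-fold, 0 with normexp and 1 with only genes well above background on all 4 arrays. A lower fold and fewer genes tested change a count by construction. With outlier spots kept or left out per pair of arrays, the added members were Ifit1, flagged on another array, and Xaf1, by its brighter probe. The members lost with normexp were Oas2 and Xaf1 between APS plus metformin and aging diabetic. Between APS plus metformin and natural aging they were Oas2 and Trim30a. Why the medians moved was not tested. Cyclic loess moved the median of all genes by -0.15 between APS plus metformin and metformin and by 0.13 between metformin and natural aging. Over all genes, keeping only those well above background on all 4 arrays took the 1851 higher with metformin than in the aging diabetic liver to 1049, the 2021 higher with metformin than in the natural aging liver to 1252, the 1939 lower with APS plus metformin than with metformin to 1117 and the 370 higher there to 242. No paired analysis was possible because each group has 1 array. Weak signal kept Oas3 from any comparison and left only bounds for Oas2 and Xaf1 on the APS plus metformin array.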
